A study of Mus musculus with 6 samples.

Results

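Macrophages, the phagocytes that reside in every organ, are recognized in a mixed tissue by a small set of surface and lysosomal proteins. The expression of 10 genes for such proteins was examined in the heart of mice that carried an activated human SRY transgene. The set held Cd68, Cd14, Csf1r, Emr1, Cd163, Mrc1, Tyrobp, Fcer1g, Aif1 and Msr1, chosen by gene symbol among the 18138 symbols of the array, and every probe that carried 1 of these symbols was taken. They were represented by 16 probes. SRY is the sex-determining factor of the Y chromosome, and the study asked what it does to gene expression when it is active outside the gonad.

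The samples were total RNA from the heart of male pups of the FVB strain (FVB/N in the methods) at postnatal day 6, 3 hSRY-ON and 3 hSRY-OFF, each hybridized to 1 MouseRef-8 BeadChip array and described as biological triplicates. In hSRY-ON pups the Signalox-hSRY cassette, present as 1 copy at H11 in 1 mouse line, had been recombined in the single-cell embryo by Cre protein from the oocyte of a Ddx4-Cre mother, so that the CAG promoter drove human SRY together with EGFP. The hSRY-ON pups used for the arrays lacked the Ddx4-Cre transgene themselves. The methods define hSRY-OFF as pups with the cassette unrecombined, in which the CAG promoter drives DsRed2, whereas littermate controls are elsewhere described as lacking the cassette, and the genotype of the control hearts is uncertain to that extent. Mouse Sry, read by 1 probe, was detected on 0 of the 6 arrays, and no probe measures the human transgene, so that the labels could not be checked by its level.

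Between 47.2% and 51.3% of the 25697 probes were above background on each array, with a detection p-value under 0.05 against the negative control beads, and hSRY-OFF replicate 3 was the dimmest array, with a median intensity of 156 against 166.6 to 200.7 on the others. The array of hSRY-ON replicate 1 stood apart by transcripts of airway epithelium. Scgb1a1, a secretoglobin of the airway, had an intensity of 12500 there and 137 to 268 on the other 5 arrays. The value of 268, in hSRY-OFF replicate 2, was above background as well. Scgb3a2 had 9164 against 133 to 176 with probe ILMN_2753867, and 196 against 132 to 159 with probe ILMN_2835481. Cyp2f2 and Sftpd, also of the lung, were at 1985 and 838 on this array and not above 169 and 187 on the others. The lung holds macrophages of its own, so the results of the tested macrophage markers are given below with and without this heart, except that Cd163 could not be tested without it. The part of the airway transcripts in these results was not tested.

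The macrophages of the mouse heart descend from embryonic precursors and from monocytes of the blood. They live on signals through Csf1r, the receptor tyrosine kinase for Csf1 and Il34, and clear dying cells and free haemoglobin by surface receptors that deliver their cargo to the lysosome. Cd14, Cd163, Mrc1 and Msr1 are receptors for bacterial or modified self molecules, Tyrobp and Fcer1g are signalling adaptors of activating receptors, Emr1 (now Adgre1) is an adhesion G protein-coupled receptor, and Cd68 and Aif1 lie inside the cell, in the lysosomal membrane and at the actin cytoskeleton. Many of their genes are transcribed under PU.1, the ETS factor of myeloid cells encoded by Sfpi1 (Spi1), whose sites contain the letters GAGGAA.

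The RefSeq table of mouse promoters, on GRCm38.p6, held an entry for 5 of the 10 genes, from 250 bases before to 50 bases after the start of transcription. The 3 among them whose transcripts rose in hSRY-ON hearts, Cd68, Mrc1 and Cd163, and Aif1, whose transcript did not pass the test, are shown for the letters GAGGAA, searched on both strands with the reverse complement TTCCTC and marked in capitals. Each promoter is printed from 5′ to 3′ on the strand of its gene. Cd68 lies on the minus strand of chromosome 11 (chr11:69666121-69666420), Mrc1 on the plus strand of chromosome 2 (chr2:14229164-14229463), Cd163 on the plus strand of chromosome 6 (chr6:124304401-124304700) and Aif1 on the minus strand of chromosome 17 (chr17:35176003-35176302).
Cd68: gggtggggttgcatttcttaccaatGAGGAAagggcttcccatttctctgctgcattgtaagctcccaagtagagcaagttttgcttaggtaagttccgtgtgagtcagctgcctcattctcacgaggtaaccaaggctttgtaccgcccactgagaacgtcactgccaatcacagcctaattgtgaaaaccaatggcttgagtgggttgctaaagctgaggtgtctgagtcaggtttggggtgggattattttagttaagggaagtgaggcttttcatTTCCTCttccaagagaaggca
Mrc1: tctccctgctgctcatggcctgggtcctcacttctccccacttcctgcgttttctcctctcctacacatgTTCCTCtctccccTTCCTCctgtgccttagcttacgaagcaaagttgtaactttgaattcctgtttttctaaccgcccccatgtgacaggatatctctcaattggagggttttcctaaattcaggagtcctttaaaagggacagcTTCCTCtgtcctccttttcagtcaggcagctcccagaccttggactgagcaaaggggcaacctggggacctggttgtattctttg
Cd163: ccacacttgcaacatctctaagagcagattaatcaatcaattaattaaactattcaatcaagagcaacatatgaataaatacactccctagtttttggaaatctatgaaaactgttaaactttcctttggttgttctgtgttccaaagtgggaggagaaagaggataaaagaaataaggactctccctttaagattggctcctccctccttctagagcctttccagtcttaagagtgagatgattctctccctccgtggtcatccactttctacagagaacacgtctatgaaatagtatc
Aif1: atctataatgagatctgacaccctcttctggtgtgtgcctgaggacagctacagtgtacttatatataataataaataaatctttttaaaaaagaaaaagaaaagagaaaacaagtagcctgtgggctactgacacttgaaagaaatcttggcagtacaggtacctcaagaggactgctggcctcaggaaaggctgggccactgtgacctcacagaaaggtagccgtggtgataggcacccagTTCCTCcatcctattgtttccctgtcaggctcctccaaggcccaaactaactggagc
Cd68 held 2 matches, 1 on each strand, Mrc1 held 3 matches, all read as TTCCTC, Aif1 held 1 and Cd163 held 0. Fcer1g, on chromosome 1, held 0 as well. Of all 32851 promoters of this length in the table, 28.3% held at least 1 match, 4.82% at least 2 and 0.685% at least 3. A match is a run of letters and not a measured site, and rising transcripts had promoters with and without it.

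Of the 16 probes, 10 probes of 8 genes were above background on at least 3 of the 6 arrays and were tested with limma, after background correction and quantile normalization. Probes of 6 genes rose in the hSRY-ON hearts, those of Cd68, Cd14, Csf1r, Cd163, Mrc1 and Tyrobp, and the 5 of them that were above background in both groups rose by 1.59-fold to 2.47-fold. No probe fell, and 4 tested probes, 1 of Csf1r, 1 of Emr1 and 2 of Aif1, did not pass. Fcer1g and Msr1 had no tested probe. Over all 12970 tested probes, 27.5% changed at an adjusted p below 0.05, 13.8% with a rise and 13.7% with a fall, so that a rise of any 1 probe was common on these arrays. The probe of Cd163 passed the filter on detection only through the hSRY-ON hearts, and a count that includes it therefore has a rise built into it. Of the 8 probes above background on all 6 arrays 5 rose, when tested among probes of that kind alone, of which 1634 of 11035 rose. In all 6 rising probes every hSRY-ON heart lay above every hSRY-OFF heart in normalized level. The same held for 23.6% of all tested probes. As the 6 probes were picked by their rise in these same hearts, their separation adds no support of its own. In whole hearts a change in the number of macrophages and a change in the RNA of each macrophage cannot be told apart.

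**Figure D1:**
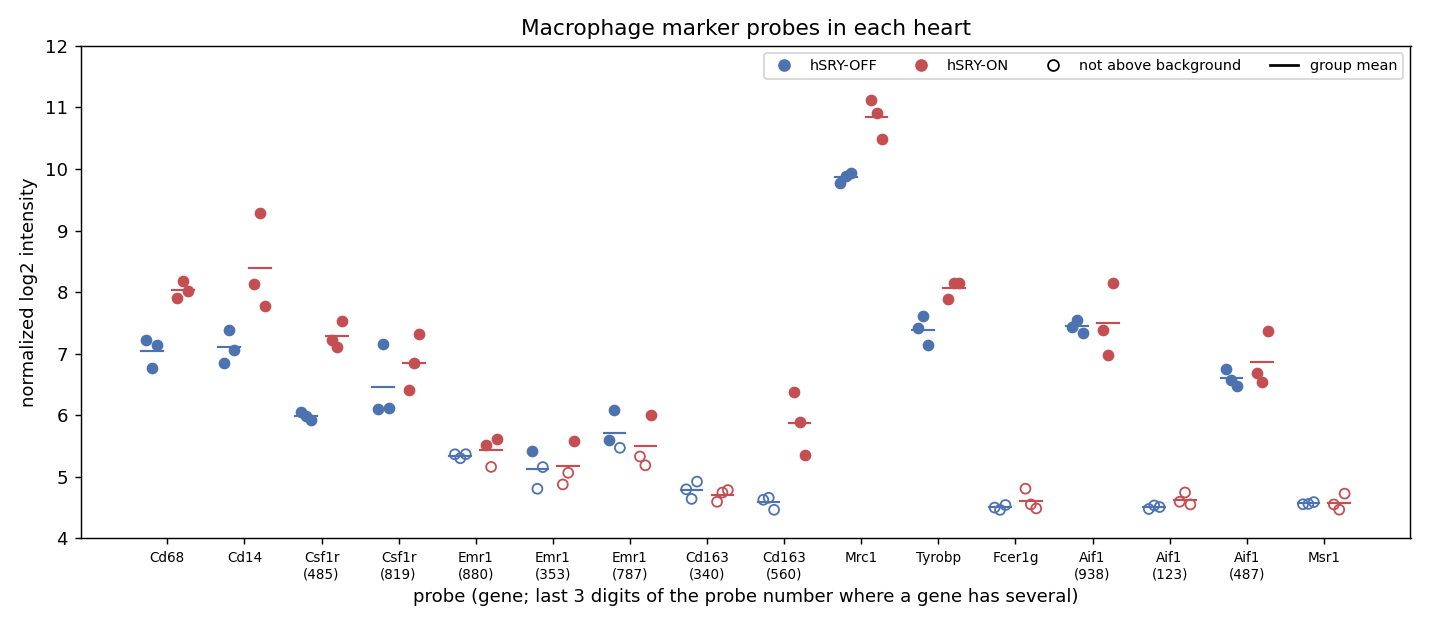
Normalized log2 intensity (vertical axis) of the 16 probes (horizontal axis, by gene and, where a gene has several, the last 3 digits of the probe number) in each of the 3 hSRY-OFF and 3 hSRY-ON hearts, with open circles for hearts in which the probe was not above background and lines for the group means. The hSRY-ON hearts lay above the hSRY-OFF hearts for Cd68, Cd14, Csf1r (485), Cd163 (560), Mrc1 and Tyrobp, while the probes of Fcer1g and Msr1 were above background in no heart.

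Cd68, or macrosialin, is a heavily glycosylated protein of the late endosome and lysosome and a widely used label of tissue macrophages. Its intensities before normalization were 319, 291 and 228 for replicates 1, 2 and 3 of hSRY-OFF, and 350, 423 and 371 for those of hSRY-ON. The groups did not overlap even on this scale, which still contains the background of each array. On the normalized log2 scale Cd68 was at 7.04 ± 0.24 in hSRY-OFF and 8.04 ± 0.14 in hSRY-ON hearts (SD, n = 3 each), a rise of 0.99 ± 0.16 (SE) with a 95% interval of 0.63 to 1.36 and an adjusted p of 0.00365 (limma). This is 1.99-fold, and the rise was 1.06 with an adjusted p of 0.0105 (limma) when hSRY-ON replicate 1 was left out.

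Csf1r was read by 2 probes, which gave different answers. Probe ILMN_1230485 had intensities of 220, 231 and 170 in hSRY-OFF and 267, 269 and 302 in hSRY-ON hearts. Every hSRY-ON heart was above every hSRY-OFF heart, and the replicates of a group stood close together. Its level rose from 5.98 ± 0.06 to 7.29 ± 0.22, by 1.30 ± 0.14 (SE, limma adjusted p = 0.000886), and by 1.34 without hSRY-ON replicate 1 (adjusted p = 0.00405). Probe ILMN_2710819 had 223, 332 and 176 in hSRY-OFF and 210, 247 and 278 in hSRY-ON hearts, and the groups overlapped, with hSRY-OFF replicate 2 the highest of all. Its level was 6.46 ± 0.60 in hSRY-OFF and 6.86 ± 0.45 in hSRY-ON hearts, a difference of 0.40 with a 95% interval of -0.38 to 1.18 (limma adjusted p = 0.408), and of 0.63 without hSRY-ON replicate 1 (adjusted p = 0.254). Without hSRY-OFF replicate 2 this difference was 0.74 (adjusted p = 0.0937). The 95% intervals of the probes, 0.97 to 1.64 for the first, overlapped, and the difference between them was not tested.

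Among the scavenger receptors, Mrc1, the mannose receptor CD206, had intensities of 1155, 1326 and 851 in hSRY-OFF and 2198, 2080 and 1486 in hSRY-ON hearts. All 3 hSRY-ON hearts were above all hSRY-OFF hearts, the least so replicate 3. Its normalized level rose from 9.87 ± 0.09 to 10.84 ± 0.32, by 0.97 ± 0.17 (SE) or 1.96-fold, with an adjusted p of 0.00602 (limma). Without hSRY-ON replicate 1, the heart with the highest Mrc1, the rise was 0.83 (adjusted p = 0.0207). Cd163, the receptor that takes up complexes of haemoglobin and haptoglobin, was read by a probe (ILMN_2964560) at 155, 167 and 123 in hSRY-OFF and 208, 191 and 167 in hSRY-ON hearts. The hSRY-OFF intensities were not above background in any heart and the hSRY-ON intensities were so in all 3, although replicate 3 was barely so. The level was 4.58 ± 0.10 in hSRY-OFF and 5.87 ± 0.51 in hSRY-ON hearts (limma adjusted p = 0.00717), a p that carries the filter on detection with it, and it was called without that filter as well (adjusted p = 0.0135). Since the hSRY-OFF hearts give only an upper limit, set by the dimmest probe above background on each array, the rise is stated as at least 1.36-fold. Without any 1 of the hSRY-ON hearts this probe no longer passed the filter, and the result cannot be given without hSRY-ON replicate 1. A second probe of Cd163 (ILMN_2627340) was not above background on any array. Msr1, the class A scavenger receptor for modified lipoproteins, ranged in intensity over 132 to 159 (hSRY-OFF) and 134 to 146 (hSRY-ON), never above background.

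Cd14, the coreceptor that hands lipopolysaccharide to the receptor Tlr4, varied the most among the hSRY-ON hearts. Its intensities were 278, 362 and 223 in hSRY-OFF and 388, 761 and 332 in hSRY-ON hearts. The value of hSRY-ON replicate 2 stood far above the rest, and replicate 3 lay below the highest hSRY-OFF heart until the arrays were normalized. The normalized level rose from 7.10 ± 0.27 to 8.40 ± 0.79, by 1.30 ± 0.37 (SE) with a 95% interval of 0.45 to 2.15 and an adjusted p of 0.0345 (limma). This call was lost without any 1 of the 3 hSRY-OFF hearts (adjusted p = 0.105, 0.0575 and 0.0722) and without hSRY-ON replicate 1 (rise of 1.43, adjusted p = 0.0569), all with limma. Without the high replicate 2 the rise was 0.85 and the call remained.

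Tyrobp, the adaptor DAP12 through which Trem2 and related receptors signal, had intensities of 345, 399 and 228 in hSRY-OFF and 348, 413 and 395 in hSRY-ON hearts. Before normalization the groups overlapped, and after it the lowest hSRY-ON heart was at 7.89 and the highest hSRY-OFF heart at 7.60. The level rose from 7.39 ± 0.23 to 8.06 ± 0.15, by 0.67 ± 0.16 (SE) or 1.59-fold (limma adjusted p = 0.0172). Without hSRY-ON replicate 1 it rose by 0.76 (adjusted p = 0.0279). The call was lost without normalization between arrays, where the change was 0.55 with an adjusted p of 0.251 (limma), and narrowly without hSRY-OFF replicate 1, hSRY-ON replicate 2 or hSRY-ON replicate 3 (adjusted p = 0.0520, 0.0525 and 0.0509). Fcer1g, the related adaptor of the activating Fc receptors, ranged over 129 to 150 (hSRY-OFF) and 133 to 152 (hSRY-ON) in intensity. None of these was above background, so its change was not measured here.

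Emr1 and Aif1, both standard labels of macrophages in tissue sections, did not pass the test. For Emr1 1 of 3 probes was tested (ILMN_2847787), at 198, 237 and 159 in hSRY-OFF and 169, 168 and 190 in hSRY-ON hearts, above background in 2 hSRY-OFF hearts and 1 hSRY-ON heart. The groups overlapped, and the difference was -0.21 with a 95% interval of -0.79 to 0.37 (limma adjusted p = 0.563), and -0.13 without hSRY-ON replicate 1 (adjusted p = 0.796). The interval reaches a fold of 1.29 at its upper end, below the 1.99-fold rise fitted for Cd68, but the probe was close to the background in all hearts. The other probes of Emr1, ILMN_1216880 and ILMN_2756353, were above background on 2 arrays each, both in hSRY-ON hearts for the first and 1 in each group for the second. The first ranged over 156 to 198 (hSRY-OFF) and 167 to 174 (hSRY-ON), the second over 151 to 191 and 154 to 174.

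Aif1, the actin-bundling protein IBA1, was above background on all 6 arrays with 2 probes. Probe ILMN_1212938 had 347, 390 and 242 in hSRY-OFF and 283, 258 and 393 in hSRY-ON hearts, and the groups overlapped fully, with replicate 3 the highest of the hSRY-ON hearts. The difference was 0.06 (95% interval -0.57 to 0.69, limma adjusted p = 0.893). Probe ILMN_2804487 gave 268, 273 and 190 in hSRY-OFF and 227, 224 and 284 in hSRY-ON hearts, with a difference of 0.27 (-0.25 to 0.78, limma adjusted p = 0.404). Both probes ordered the hSRY-ON hearts with replicate 3 above the others, and without replicate 1 the differences were 0.12 and 0.36 (adjusted p = 0.824 and 0.371). The upper ends of the intervals stood at 1.62-fold and 1.72-fold, so a rise of the size fitted for Tyrobp was not outside them. Its remaining probe, ILMN_1218123, was above background on no array.

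**Figure D2:**
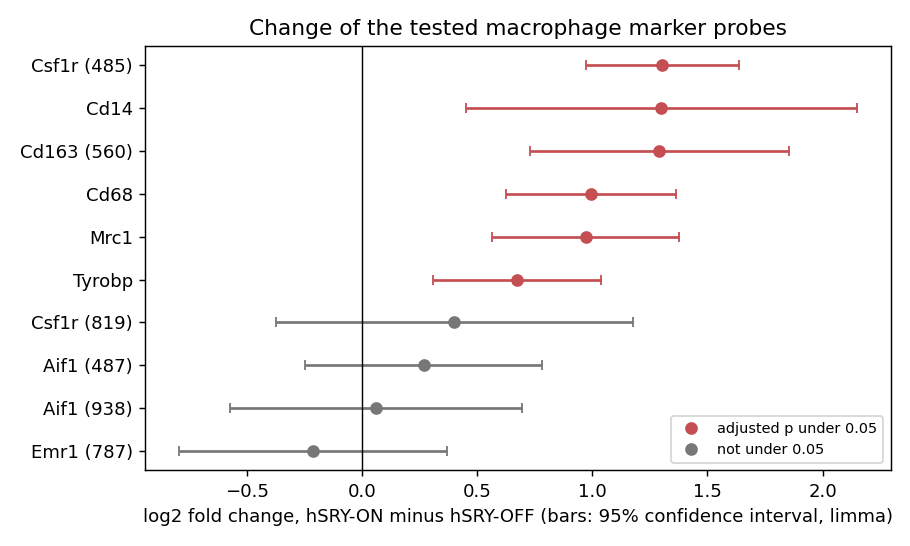
Log2 fold change of hSRY-ON minus hSRY-OFF hearts (horizontal axis) for the 10 tested probes (vertical axis), with bars for the 95% confidence interval of limma and red for an adjusted p under 0.05. The intervals of Cd68, Cd14, Csf1r (485), Cd163 (560), Mrc1 and Tyrobp lay above 0, with that of Cd14 the widest among them, and those of Emr1, Aif1 and the second Csf1r probe crossed 0.

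The ligands and partners of these proteins moved unevenly. Of 17 tested genes on this list 6 rose and 1 fell, with a median log2 fold change of 0.19, while over the brightest probe of all 9660 tested genes 14.9% rose and 13.9% fell and the median was 0.0026. The rising Fcgr3 and Trem2 and the uncalled Fcgr1 are counted again among the other macrophage and monocyte genes below, so these counts are not separate. Around Cd163, haptoglobin (Hp), the plasma protein that binds free haemoglobin, rose by 1.99 ± 0.50 (SE, limma adjusted p = 0.0223), from 5.85, 5.71 and 6.21 in hSRY-OFF to 9.22, 7.21 and 7.32 in hSRY-ON hearts on the normalized log2 scale. The heart with airway transcripts was the highest, and without it the rise of Hp was 1.35 (adjusted p = 0.00491), while the call was lost without hSRY-OFF replicate 1 or 2 (adjusted p up to 0.0692). Hmox1, which degrades the haem that Cd163 brings in, rose by 1.15 ± 0.17 (limma adjusted p = 0.00258), from 6.82, 7.25 and 7.38 to 8.41, 8.19 and 8.30. All hSRY-ON hearts were alike in Hmox1, and it remained called in all 16 alternatives that were run.

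For Csf1r, the ligand Csf1 differed by 0.17 with a 95% interval of -0.57 to 0.91 (limma adjusted p = 0.731), and its sign turned without normalization or without hSRY-OFF replicate 3. Around Cd14, Lbp, the plasma protein that delivers lipopolysaccharide to it, rose by 1.02 ± 0.19 (SE, limma adjusted p = 0.00699). Tlr4 differed by 0.06, its partner Ly96 by 0.29 and the adaptor Myd88 by 0.15, none with an adjusted p under 0.05 (limma), and the sign of Tlr4 turned in 3 alternatives. A rise was thus measured for the transcripts of Lbp and Cd14, while those of the other parts of the complex did not pass. Hp and Lbp are made mainly by the liver, and other liver genes moved with them, as described below for the cells other than macrophages.

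Of the receptors that signal through Fcer1g, Fcgr3 rose by 1.19 ± 0.16 (SE, limma adjusted p = 0.00197), from 8.76, 8.90 and 8.44 in hSRY-OFF to 9.90, 10.07 and 9.71 in hSRY-ON hearts. Fcgr4 rose by 1.12 ± 0.13 (limma adjusted p = 0.00114). Both are receptors for antibody, as is Fcgr1 of the same group, which differed by 0.19 and did not pass (adjusted p = 0.441). Fcgr3 and Fcgr4 remained called in all 16 alternatives, hSRY-ON replicate 1 left out included. Trem2, the lipid receptor that signals through Tyrobp, rose by 0.67 ± 0.19 (adjusted p = 0.0358), but this call was lost in 9 of 16 alternatives, among them the ones without hSRY-OFF replicates 1, 2 or 3 and hSRY-ON replicates 1 or 3. Plcg2, a phospholipase downstream of these receptors, fell by 1.17 on the log2 scale (limma adjusted p = 0.00588), from 9.08, 8.72 and 9.12 to 7.68, 7.51 and 8.22. The kinase Syk of the same pathway was above background on no array.

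Of 23 other macrophage and monocyte genes tested, 12 rose and 0 fell (median log2 fold change 0.59), beside the 14.9% and 13.9% of all genes. A positive difference was found for 21 of them. Coro1a and Cd52 differed by -0.46 and -0.23 and did not pass (limma adjusted p = 0.102 and 0.408). The largest rises were those of Fcgr2b, the inhibitory antibody receptor (1.31 ± 0.22, SE), Ms4a7, a membrane protein of mature macrophages (1.21 ± 0.16), and Fcgr3. Ms4a7 was at 7.12, 7.17 and 6.94 in hSRY-OFF and 8.20, 8.08 and 8.58 in hSRY-ON hearts, so that the gap between the groups was wider than the spread within each. The chains of complement C1q, a product of resident macrophages, rose together, C1qc by 1.12, C1qa by 0.93 and C1qb by 0.92, as did the efferocytosis receptor Mertk by 1.18, the lysozyme gene Lyz2 by 1.02 and the lysosomal protease legumain (Lgmn) by 0.98, all with an adjusted p below 0.05 (limma). Without hSRY-ON replicate 1, 11 genes of this list were called, and 8 were called without normalization between arrays. The chemokine receptor Cx3cr1 differed by 0.19 and Sfpi1, which encodes PU.1, by 0.34, with adjusted p of 0.794 and 0.195 (limma), and the sign of Cx3cr1 turned in 3 alternatives. Another 11 genes of the list, among them Ptprc (CD45), Itgam (CD11b), Itgb2 and Ctss, were above background on no array.

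Genes that separate resident from recruited macrophages were divided. Their counts stand beside the 14.9% of all genes that rose and the 13.9% that fell. RNA of whole hearts does not show which cells held the transcripts of either kind. Of 6 tested resident genes 3 rose, Gas6, a bridge between dying cells and Mertk, by 1.18 ± 0.14 (SE), F13a1, the transglutaminase of coagulation, by 1.18 ± 0.18, and the scavenger receptor Stab1 by 0.65 ± 0.12 (limma adjusted p = 0.00121, 0.00345 and 0.00718). Folr2, a folate receptor of resident macrophages, fell by 0.80 on the log2 scale, from 6.58, 6.85 and 6.58 in hSRY-OFF to 5.61, 5.72 and 6.27 in hSRY-ON hearts (limma adjusted p = 0.0200). Its call was lost without hSRY-OFF replicate 2, hSRY-ON replicate 1 or hSRY-ON replicate 2 (adjusted p up to 0.0667). Cbr2 was at 7.08, 7.40 and 7.42 in hSRY-OFF and 10.92, 6.19 and 6.77 in hSRY-ON hearts, high only in the heart with airway transcripts, and its difference of 0.66 (adjusted p = 0.690) turned to -0.82 without that heart (limma adjusted p = 0.0423). Lyve1 differed by 0.81 and did not pass (adjusted p = 0.101). Timd4, a defining gene of the self-renewing cells, was above background on no array. Of 4 tested recruited genes 2 rose, the galectin Lgals3 by 2.44 ± 0.24 (limma adjusted p = 0.000585) and the matrix protein Thbs1 by 1.27 ± 0.20. Lgals3 was at 7.59, 7.86 and 7.09 in hSRY-OFF and 10.09, 10.20 and 9.58 in hSRY-ON hearts, and both genes remained called in all 16 alternatives, although neither is restricted to monocytes. Plac8, of the same list, was lower in every hSRY-ON heart, at 6.73, 6.74 and 6.45 in hSRY-OFF and 6.31, 5.65 and 6.24 in hSRY-ON hearts, and did not pass (difference -0.57, adjusted p = 0.0670). Ccr2, the defining receptor of recruited monocytes, was above background on no array.

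Among 14 lysosomal genes beside Cd68, all tested, 6 rose and 0 fell (median 0.26), beside the 14.9% and 13.9% of all genes. Gpnmb, a membrane protein of lysosomes under load, was above background in no hSRY-OFF heart and in all hSRY-ON hearts, at 7.48, 9.30 and 8.14 on the normalized log2 scale, and rose at least 7.36-fold. It passed the filter on detection only through the hSRY-ON hearts, so its rise is built into the count. The heart with the highest Gpnmb was hSRY-ON replicate 2, which also had the highest Cd14. The protease Ctsl rose by 1.44 ± 0.25 (SE, limma adjusted p = 0.00558) and progranulin (Grn) by 0.88 ± 0.14 (limma adjusted p = 0.00373). Cd63, Lamp1 and Hexa rose by 0.50, 0.45 and 0.44, and each of these lost its call without hSRY-ON replicate 1, where Ctsl and Grn were the 2 genes called of this list and Gpnmb was not tested. The number called was 3 without hSRY-OFF replicate 1, hSRY-OFF replicate 2 or hSRY-ON replicate 2, and 2 without normalization between arrays. Lamp2, Ctsb, Ctsd and Psap, expressed in most cells, did not pass.

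**Figure D3:**
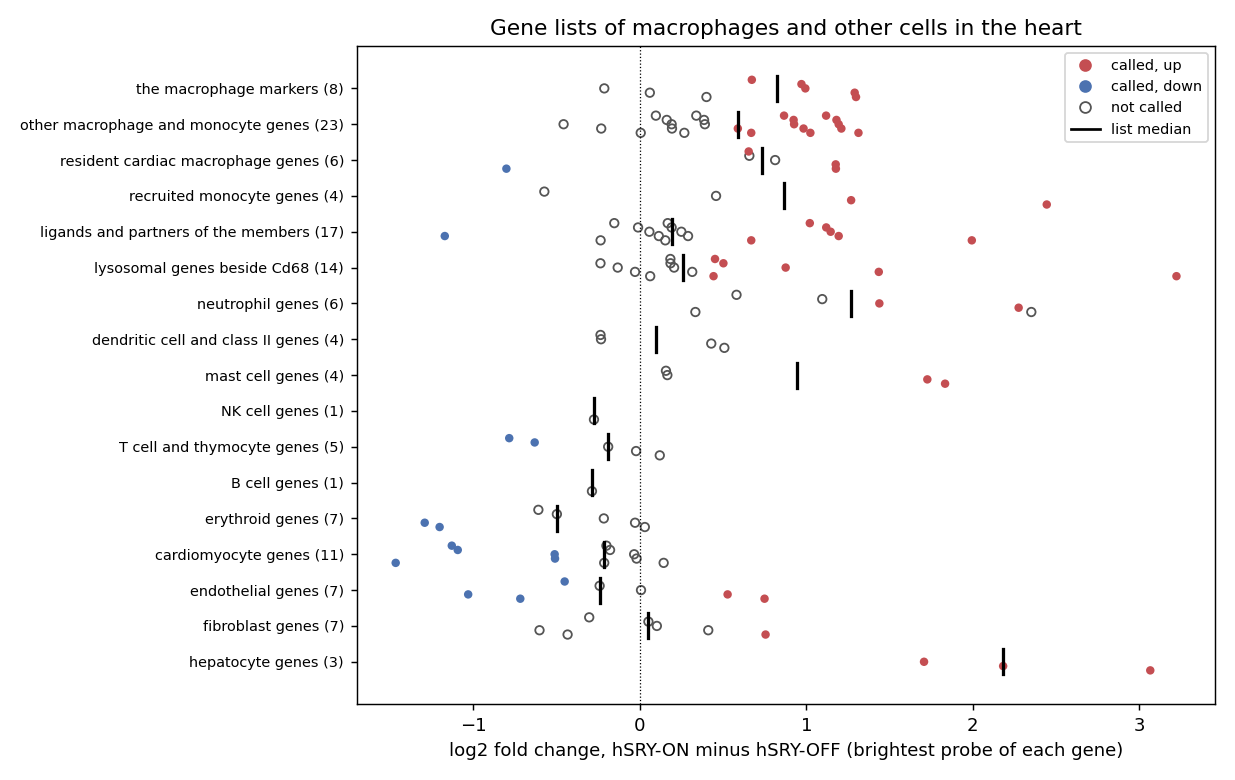
Log2 fold change of hSRY-ON minus hSRY-OFF hearts (horizontal axis), by the brightest probe of each gene, for the tested genes of each list (vertical axis, with their number), with filled circles for an adjusted p under 0.05, open circles for genes that did not pass and a bar for the median of the list; Csf1r enters by its brighter probe, ILMN_2710819. The other macrophage genes held 12 rises and 0 falls around a median of 0.59, while the cardiomyocyte list held 5 falls and 0 rises. Over all tested genes 14.9% rose and 13.9% fell.

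Genes of other cells moved with the macrophage markers in both directions. Their counts, here and for the blood and liver genes below, stand beside the 14.9% of all genes that rose and the 13.9% that fell. In the heart muscle list 5 of 11 tested genes fell and 0 rose, the largest falls being those of Pln by 1.47, Tnni3 by 1.13 and Ryr2 by 1.09 on the log2 scale. The 2 brightest of this list, Myl3 and Myl2, lay at the top of the intensity scale, where quantile normalization gives the arrays nearly the same values, and no change or lack of one was read from them. With that limit, the summed level of the list, in background-corrected intensity, ranged over 254243 to 269817 (hSRY-OFF) and 232900 to 247536 (hSRY-ON). The defining genes of heart muscle were thus abundant in both groups, as the labelled tissue would have them. Of 7 endothelial genes Eng and Emcn rose and Ptprb, Cdh5 and Tek fell, while Pecam1 differed by 0.008 (limma adjusted p = 0.974). Of 7 fibroblast genes Tcf21 alone rose, and 4 had a positive difference. Dcn and Col1a1, the brightest of that list, differed by -0.30 and 0.05, and Lum and Col3a1 by -0.43 and -0.60. None of these passed, although every hSRY-ON heart lay below every hSRY-OFF heart for Dcn and Lum. Without hSRY-ON replicate 1, hSRY-ON replicate 2 or hSRY-OFF replicate 1, 3 heart muscle genes and 3 endothelial genes were called, and without hSRY-OFF replicate 2, 3 heart muscle genes. Tcf21 was not called without hSRY-OFF replicate 1.

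Among the blood cells, 2 of 6 tested neutrophil genes rose, Lcn2, at least 3.77-fold with 0 of 3 hSRY-OFF hearts above background, and Retnlg by 1.44 ± 0.44 (SE, limma adjusted p = 0.0463). The summed level of that list ranged over 560 to 750 (hSRY-OFF) and 905 to 3890 (hSRY-ON). The highest sum was mostly Ltf in hSRY-ON replicate 1, the heart with airway transcripts. Ltf was at 5.74, 5.19 and 5.98 in hSRY-OFF and 11.44, 5.26 and 7.27 in hSRY-ON hearts and did not pass (limma adjusted p = 0.229). Retnlg was not called without hSRY-ON replicate 1 or any 1 of the hSRY-OFF hearts. Lcn2 passed the filter on detection only through the hSRY-ON hearts, so its rise is built into the count, and it was not tested without hSRY-ON replicate 1. S100a8 was at 9.01, 9.20 and 8.73 in hSRY-OFF and 9.61, 9.33 and 11.29 in hSRY-ON hearts and did not pass (adjusted p = 0.122), while Mpo, Ela2 (Elane) and Csf3r did not pass the filter on detection. Of 4 mast cell genes Hdc rose by 1.83 ± 0.20 and Tpsab1 by 1.73 ± 0.13 (limma adjusted p = 0.000926 and 0.000205), both with and without hSRY-ON replicate 1. Cpa3 and Cma1 differed by 0.17 and 0.16 and did not pass (limma adjusted p = 0.635 and 0.488). The summed levels were 436 to 520 (hSRY-OFF) and 1333 to 2066 (hSRY-ON), made up mostly of Hdc, the brightest of the list. Of 4 dendritic cell and class II genes 0 were called by limma and 1 had an unadjusted p under 0.05. The brightest, Cd74 and Cd83, differed by -0.24 and -0.23. Of 5 T cell genes Cd3g and Cd3d fell by 0.78 and 0.63, close to the background, and with any 1 heart left out at most 1 of them was called. Thy1 and Ptcra, the brightest of that list, differed by -0.19 and -0.02 and did not pass (limma adjusted p = 0.473 and 0.960). The 1 tested gene of B cells, Cd79b, and the 1 of NK cells, Prf1, did not pass, and of 7 erythroid genes Hbb-b1 and Hbb-b2 fell, the first by 1.29 on the log2 scale. Alas2 differed by -0.50 and did not pass (limma adjusted p = 0.350). The brightest erythroid gene, Hba-a1, lay at the top of the intensity scale, and no change or lack of one was read from it.

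The 3 tested hepatocyte genes rose, Ttr having passed the filter on detection only through the hSRY-ON hearts, Ahsg by 3.07 ± 0.35 (SE), Trf by 1.71 ± 0.15 and Ttr at least 3.87-fold, with summed levels of 695 to 816 (hSRY-OFF) and 2588 to 4910 (hSRY-ON). Ahsg was at 7.64, 7.53 and 7.95 in hSRY-OFF and 11.45, 10.95 and 9.92 in hSRY-ON hearts, so that the rise was present in each of the latter. Alb, the defining gene of hepatocytes, was above background on no array, and Apoa1 and Apoa2 on 2 and 1. The liver has resident macrophages of its own, and the part of RNA from other tissues in the changes of the macrophage markers was not tested. The macrophage markers themselves summed to 1498 to 1715 (hSRY-OFF) and 2618 to 3340 (hSRY-ON) over the brightest probes of the 8 tested genes. Fcer1g and Msr1, above background on no array, do not enter these sums.

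The genes most like the macrophage markers over the 6 hearts were sought with the mean standardized level of the 10 tested probes, which was -0.61, -0.25 and -0.81 in hSRY-OFF and 0.35, 0.37 and 0.96 in hSRY-ON hearts. The Pearson correlation with it was highest for Ebag9 (0.996), Insc (0.985), LOC100048483 (0.984), Ppp1r1a (0.982) and Cacna2d3 (0.980) among the 9660 genes. These 6 points share 2 groups, so that any gene that differs between the groups correlates with the profile, and no test is attached. Insc, Ppp1r1a and Cacna2d3 rose by 1.28, 0.92 and 0.81. Ebag9 and LOC100048483 differed by only 0.18 and 0.28 and did not pass (limma adjusted p = 0.261 and 0.105). Among the genes of the macrophage lists, Ms4a7 (0.976) was the only one within the first 10.

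**Figure D4:**
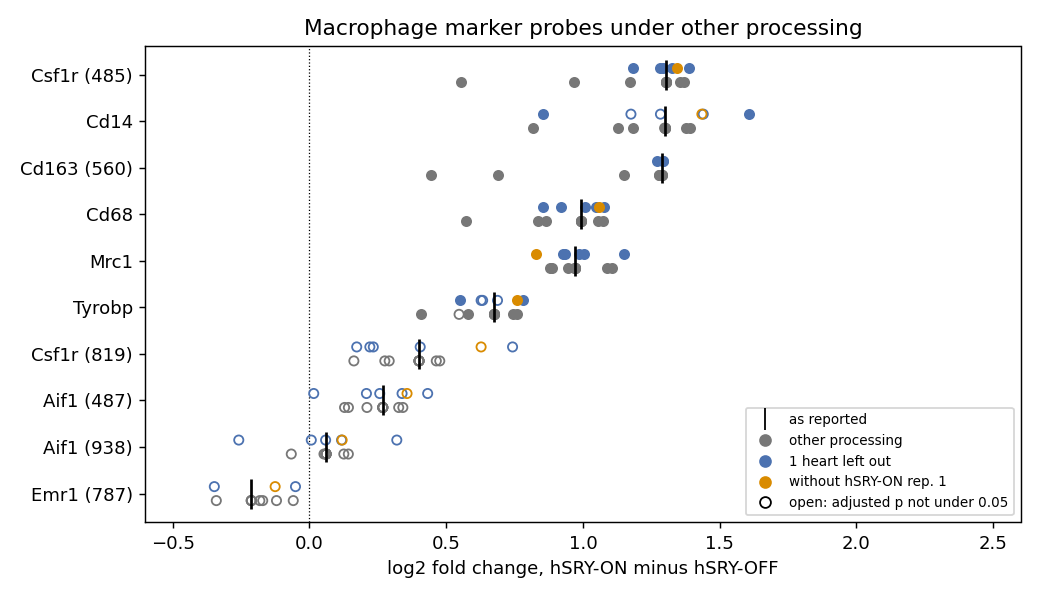
Log2 fold change of hSRY-ON minus hSRY-OFF hearts (horizontal axis) for the 10 tested probes (vertical axis) as reported (black bar), under other processing (grey), with 1 heart left out (blue) and without hSRY-ON replicate 1 (orange), with open circles where the adjusted p was not under 0.05. Cd68, Csf1r (485) and Mrc1 stayed called throughout, Cd14 and Tyrobp lost the call in 5 and 4 alternatives, and Cd163 (560) has no point for the settings without an hSRY-ON heart, in which it was not tested.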

How the data were processed

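Total RNA of 6 hearts was hybridized by the authors to MouseRef-8 BeadChip arrays, after purification with the TRIZOL Plus kit and labelling with Ambion TotalPrep. The authors deposited, for each of 25697 probes and each array, a bead intensity on a linear scale, neither normalized nor background-subtracted, and a detection p-value against negative control beads. The text of the paper names TCC for their own analysis and the submitters' processing notes name limma, and neither enters the deposited intensities. The positions of the arrays on the chips are not given in the sources used here. No 2 arrays held identical values.

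From the intensities, neqc of limma 3.58.1 in R 4.3.3 corrected the background by means of the detection p-values, brought the arrays to common quantiles and gave log2 values, with an offset of 16. Probes with a detection p under 0.05 on at least 3 of the 6 arrays entered the test. The group was the only term of the two-sided fit by lmFit and eBayes, and p-values were adjusted after Benjamini and Hochberg across the 12970 probes. Every log2 difference is hSRY-ON minus hSRY-OFF. An exact permutation test of 3 hearts against 3 cannot give a p below 0.1. In the lists each gene was read by its brightest probe, and summed levels are background-corrected intensities. The procedure was also run on simulated arrays with few changed probes and the same noise in every heart. They differ in this from the hearts, so that the error rate of the calls was not tested by them. Python 3.11.15 with matplotlib 3.10.9 drew the figures. The precision is limited by the number of arrays and by signal over background, the lowest intensity of each array lying between 110 and 135.

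The marker genes, the gene lists and the alternatives were chosen with earlier results of these data known. The rule for named genes took all probes of the markers, up to 3 called genes with the largest rise and fall in each list whose groups did not overlap, the 2 brightest genes of other cell types and the 5 genes most like the markers. The airway genes, and list genes named beyond this rule, were chosen after their values were seen.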

Additional observations from a re-analysis of the deposited data

How the results depend on the processing

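Marker probes, counts of calls and called list genes were recomputed in 16 alternatives, of which 6 left out 1 heart each. Of the 150 fits of the tested marker probes under them, 139 kept direction and side of the threshold, 9 were no longer called and 2 changed sign. Cd68, Csf1r (ILMN_1230485) and Mrc1 were called in all 16. Cd163 was called in the 11 in which it was tested, which is no sign of stability, as it was not tested when detection on all 6 arrays or at 0.01 was required or without any 1 of the hSRY-ON hearts. The 2 changes of sign were those of Aif1 (ILMN_1212938), to -0.067 without normalization between arrays and to -0.26 without hSRY-ON replicate 3 (range with 1 heart left out -0.26 to 0.32). Of the other genes named without a call, Cx3cr1, Sfpi1, Fcgr1, Csf1, Tlr4, Ly96, Myd88, Lyve1, Cbr2, Plac8 and S100a8 were followed singly. The rest, such as Pecam1, Col1a1, Psap, Ptcra and Ltf, were not, and whether their signs held is not known. Among those followed, the difference turned to -0.065, -0.088 and -0.10 for Cx3cr1 without hSRY-OFF replicate 1, hSRY-ON replicate 1 and hSRY-ON replicate 3 (range -0.10 to 0.77). It turned to -0.012 and -0.19 for Csf1 without normalization and without hSRY-OFF replicate 3 (range -0.19 to 0.47), and to -0.067, -0.036 and -0.067 for Tlr4 without normalization, hSRY-OFF replicate 3 and hSRY-ON replicate 2 (range -0.067 to 0.13). Cbr2 turned to -0.82 without hSRY-ON replicate 1 (range -0.82 to 1.54). The cause was not tested.

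The number of marker probes called was 6 in the analysis as reported and 4 to 6 in the alternatives, with 4 to 5 when 1 heart was left out. Over all probes 3567 were called as reported, 1897 without normalization between arrays, and 2206 (without hSRY-OFF replicate 1) to 3669 (without hSRY-OFF replicate 3) with 1 heart left out, and 2255 without hSRY-ON replicate 1. Rises made up 50.1% of the calls as reported, 38.5% without normalization, where the median over tested probes was -0.12 (log2), and 65.1% with arrays scaled to the median of detected probes. Without normalization the named genes C1qa, Trem2, Stab1, Grn, Cd63, Lamp1, Hexa, Cd3d, Eng, Emcn, Tek and Tcf21 were not called and S100a8 was, with 2 endothelial, 0 fibroblast and 4 neutrophil genes called. Ltf was not followed singly, and whether it was among these 4 is not known. The genes called in the lists numbered 51 of 117 as reported, and 37 to 48 with 1 heart left out. With the replicate number as a block 2842 probes were called and the same 6 marker genes, but hearts with the same number did not deviate together (correlations of -0.02, 0.04 and -0.07), and the labels give the numbers no other meaning. Detection limits the rest: 6 of the 16 marker probes, and Fcer1g and Msr1 entirely, could not be tested.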
